A study of Mus musculus with 4 samples.

Results

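The A and B compartments of mouse lung fibroblasts were mapped as 250-kb bins of the 19 autosomes in H3K4me3 HiChIP data of MLg cells, an established mouse lung fibroblast line. Each bin was chosen by its contacts in these same libraries: the intrachromosomal pairs of 4 libraries were pooled, divided by the mean at each distance and correlated, and the sign of the first eigenvector placed the bin. Positive bins are A and negative bins are B, with the positive side of each chromosome set as the one with more protein-coding transcription start sites (TSS). Of 9859 autosomal bins, 9461 had enough pairs for a value, and 6047 of these were A and 3414 were B. The 398 bins left out held under 10% of the median count of their chromosome, and 250 of them held no pair.

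H3K4me3 HiChIP joins DNA ends that lie close together in the nucleus and then enriches the joined pieces with an antibody against H3K4me3, a histone mark of active promoters. There was 1 library per condition and no replicate: Control (without TGFB1, labelled WT), TGFB1 (5 ng/ml for 4 h), miR-9-LOF (loss of function of miR-9 by 60 nM of an antagomiR) and TGFB1+miR-9-LOF (both). The cells were collected 24 h after transfection, and by the study's text Control and TGFB1 received a control antagomiR, which their own labels do not name. Every difference below therefore compares libraries and not conditions, and intervals cover counting error only. The libraries held 13148144 (Control), 9349493 (TGFB1), 12617104 (miR-9-LOF) and 12058489 (TGFB1+miR-9-LOF) autosomal pairs in which each end mapped with a quality of 30 or more.

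In mammalian nuclei, stretches of active and of silent chromatin tend to keep to their own kind. The A compartment is known for open, gene-rich and early-replicating chromatin in the nuclear interior, and the B compartment for closed, gene-poor chromatin that often lies at the nuclear lamina. Compartments differ between cell types, since genes of a lineage can lie in A where they are used and in B elsewhere.

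A bins made up 63.9% of the bins. On 17 of the 19 autosomes the share lay between 57.1% and 67.8%, and it was 86.8% on chromosome 4 and 78.4% on chromosome 13. The plot of shares by chromosome shows these chromosomes above the others. On chromosome 4 the eigenvector followed position along the chromosome (Spearman rho 0.57, against −0.21 to 0.37 on the 17), and the last of 3 equal parts of the chromosome was 100% A. The eigenvector of chromosome 13 had the lowest correlation with the number of coding TSS (rho 0.34, over a range of 0.34 to 0.69). Without chromosomes 4 and 13, a choice made after seeing the data, 61.6% of the bins were A.

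**Figure D1:**
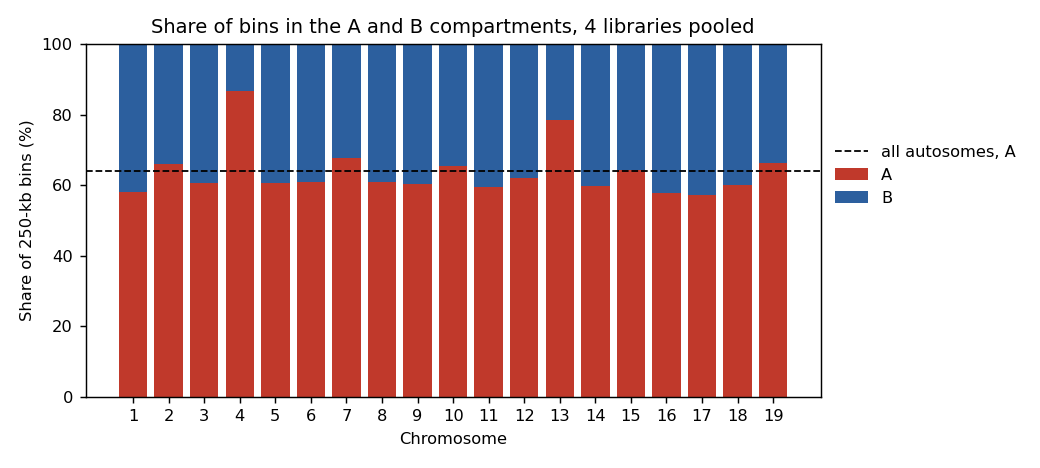
Share of 250-kb bins in A (red) and B (blue) on each autosome, in percent, with the 4 libraries pooled; the dashed line is the A share over all autosomes, 63.9%. Chromosomes 4 and 13 stand above the line at 86.8% and 78.4%.

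The share of A differed between ways of counting. The eigenvector was taken from counts that were not balanced, and its correlation with the pairs of a bin was 0.77 to 0.87 on the 17 autosomes and 0.49 and 0.74 on chromosomes 4 and 13. When the matrices were balanced so that every bin had the same total, 49.3% of the bins were A. Of the bins, 85.4% kept their side, 1385 went from A to B, and 0 went from B to A, so the B bins named here were B in both ways of counting. Next to the threshold, the nearest B bin had an eigenvector of −0.000462 and the nearest A bin one of 0.000459, and 4.98% of the bins lay within 0.1 of 0.

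A second number, the compartment score, was computed for each bin: the log2 ratio of its observed over expected pairs with A bins to the same with B bins, at least 2 Mb away on the same chromosome. The median score was 1.29 in A and −0.76 in B (pooled libraries). A score of 0 means equal observed over expected pairs with both sides, where the expected number corrects for distance only. As A bins held 1.73 to 2.37 times the pair ends of B bins over the libraries, 0 is not a point of equal preference. Of the A bins, 94.2% had a score above 0, and 97.8% of the B bins had one below 0. The B bin nearest to the threshold scored −0.07 and the nearest A bin 0.13. Bins of chromosome 4 as close to the threshold scored far lower on both sides. The A bins chr4:35500001-35750000 and chr4:73750001-74000000 scored −0.73 and −1.10, and the B bin chr4:78500001-78750000 scored −1.24. On that chromosome an A side can thus go with a score well below 0. These values use the pairs that placed the bins and are descriptions. A formed 692 runs with a median length of 1 Mb, and B formed 691 runs with a median of 0.75 Mb. Lengths of runs include bins left out within them. The longest A run spanned 68.75 Mb of chromosome 4 (chr4:87500001-156250000, mm10) with 245 kept bins, in the part of the chromosome without B bins. On that chromosome the eigenvector followed position (rho 0.57), which limits the reading of this run. The next A run was 20 Mb of chromosome 6 (chr6:81750001-101750000). The longest B run, 8.5 Mb of chromosome 6 (chr6:73250001-81750000), held 12 coding TSS, among them Ctnna2 (a neuronal catenin), Lrrtm1 and Lrrtm4 (synaptic adhesion proteins) and the Reg3 lectins of the gut, and no H3K4me3-enriched region. Other long B runs held few genes, many for cell adhesion: Pcdh10 and Pabpc4l on chromosome 3, the cadherins Cdh6, Cdh9, Cdh10 and Cdh12 on chromosome 15, and Pcdh8, Olfm4 and Pcdh17 on chromosome 14.

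Pairs between chromosomes took no part in placing the bins, and A and B sorted in them too. Relative to the number expected from the coverage of the bins on each pair of chromosomes, B-B pairs stood at 1.78 (95% counting interval 1.77 to 1.79) in Control, 1.81 (1.80 to 1.82) in TGFB1, 1.74 (1.73 to 1.75) in miR-9-LOF and 1.64 (1.63 to 1.65) in TGFB1+miR-9-LOF. A-A pairs stood at 1.04, 1.05, 1.06 and 1.05 in the same order, and A-B pairs at 0.824, 0.803, 0.794 and 0.825. Like sides met more often than unlike ones on all 171 pairs of chromosomes in each of the 4 libraries. Because A bins held most ends, 64.6% to 69.3% of the interchromosomal pairs were A-A and 6.01% to 8.25% were B-B. The combined strength between chromosomes, (A-A + B-B) over 2 times A-B, was 1.71 (1.70 to 1.72) in Control, 1.78 (1.77 to 1.79) in TGFB1, 1.76 (1.75 to 1.77) in miR-9-LOF and 1.63 (1.62 to 1.63) in TGFB1+miR-9-LOF. TGFB1+miR-9-LOF was the lowest and its interval did not meet the others. It was also the library with the largest interchromosomal share of A ends, 18.9% against 14.7% to 18.1%, and the part of this in its strength was not tested.

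Base composition, which the rule did not use, differed between the compartments. The median GC content was 43.3% in A bins (interquartile range 40.8% to 45.8%) and 38.8% in B bins (37.4% to 40.8%), and it was higher in A on 19 of 19 chromosomes. CpG dinucleotides stood at 9.76 per kb in A and 5.66 in B. Repeat-masked sequence took 29.1% of A bins and 38.8% of B bins, higher in B on all 19 chromosomes. Sites of MboI, the enzyme that cut the chromatin, were slightly denser in B, at 2.53 per kb against 2.44 in A. The eigenvector correlated with GC content on every chromosome (Spearman rho 0.46 to 0.78 across the bins of a chromosome, median 0.69), as a description over neighbouring bins that share sequence and coverage.

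**Figure D2:**
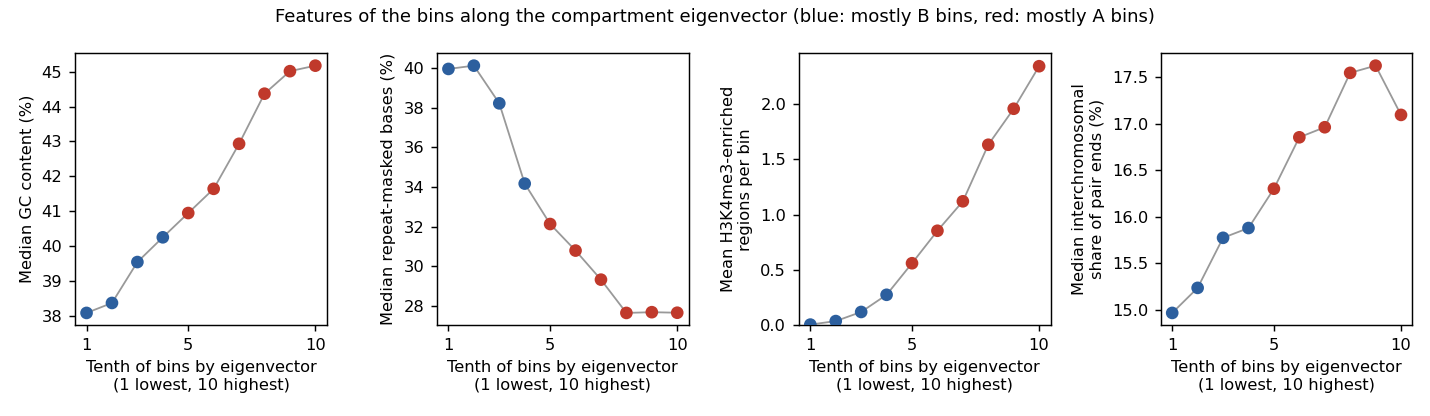
Median GC content (%), median repeat-masked share (%), mean number of H3K4me3-enriched regions and median interchromosomal share of pair ends (%) of the bins, in 10 groups of 946 or 947 bins ordered by eigenvector, with the libraries pooled. GC content rises from 38.1% to 45.2%, enriched regions rise from 0.00634 to 2.34 per bin, and repeat-masked sequence falls from 39.9% to 27.7%.

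H3K4me3 lay almost wholly in A. Of 8435 enriched regions, 8152 (96.6%) were in A and 281 (3.33%) in B, or 5.39 and 0.329 per Mb. The remainder lay in bins left out. Enriched regions were runs of 1-kb bins with at least 4 times the background of pair ends at a false discovery rate of 0.01. The background was the mean of the surrounding 100 kb or, where higher, that of the whole chromosome. Where the surroundings held fewer ends than the chromosome mean, as in many B bins, a region had to exceed its own surroundings by more than 4 times. The part of this in the difference between A and B was not tested. In B, 93.2% of the bins held no enriched region, against 36.2% in A. Since the ends in enriched regions are part of the coverage that entered the eigenvector, this is a description and no independent measure. The 3199 coding genes in B (15.7% of 20372 genes placed) were shorter at the median than those in A (9.43 kb against 19.5 kb), but 8.53% of them were over 200 kb long, against 3.94% in A. An enriched region lay within 2 kb of the TSS of 44.9% of the genes in A (95% Wilson interval 44.2% to 45.7%) and 7.16% of those in B (6.32% to 8.10%). Without olfactory and vomeronasal receptor genes the shares were 45.6% and 10.8%. Outside these families lay 16906 of the 17173 genes in A and 2115 of the 3199 in B. The lengths above include the receptor genes, and their part in the median length of B genes was not tested.

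Promoter sequence was compared by its CpG dinucleotides. In the 250 bases before the start of 12883 genes with a RefSeq promoter (GRCm38.p6), CpG numbered 13 at the median in A (interquartile range 6 to 21) and 3 in B (1 to 10). Among promoters with an enriched region the medians were 18 in A and 17 in B, and among those without one they were 7 and 2. At least 10 CpG stood in 86.2% of the enriched promoters of A, 77.5% of those of B, and 58.5% of all promoters. CG was counted on 1 strand, as it reads the same on both. Below, 4 of these windows are shown, 1 for each combination of side and mark, with each CpG in capitals.
Col5a1: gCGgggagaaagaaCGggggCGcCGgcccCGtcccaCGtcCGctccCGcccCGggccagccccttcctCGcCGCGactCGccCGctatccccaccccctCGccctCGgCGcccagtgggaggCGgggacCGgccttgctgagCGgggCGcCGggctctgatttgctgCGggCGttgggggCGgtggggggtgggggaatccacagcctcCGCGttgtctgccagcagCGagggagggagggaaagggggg
Col3a1: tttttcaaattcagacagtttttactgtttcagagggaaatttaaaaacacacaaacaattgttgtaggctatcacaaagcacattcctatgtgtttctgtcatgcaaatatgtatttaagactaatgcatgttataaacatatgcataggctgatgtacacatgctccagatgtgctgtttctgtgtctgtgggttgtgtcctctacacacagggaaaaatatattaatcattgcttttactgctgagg
Meis1: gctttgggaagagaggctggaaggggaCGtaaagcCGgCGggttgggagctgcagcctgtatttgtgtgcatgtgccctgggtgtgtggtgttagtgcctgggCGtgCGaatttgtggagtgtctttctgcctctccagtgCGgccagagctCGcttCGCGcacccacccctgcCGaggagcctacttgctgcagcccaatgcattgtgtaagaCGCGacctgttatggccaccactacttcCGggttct
Ctnna2: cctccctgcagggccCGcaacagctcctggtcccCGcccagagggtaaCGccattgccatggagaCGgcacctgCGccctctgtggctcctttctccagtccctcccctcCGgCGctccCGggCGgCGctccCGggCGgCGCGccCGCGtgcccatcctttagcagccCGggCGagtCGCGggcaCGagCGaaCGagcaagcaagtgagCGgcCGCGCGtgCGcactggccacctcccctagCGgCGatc
Col5a1, a fibrillar collagen chain in A with H3K4me3, lies at chr2:27886175-27886424 (plus strand) and holds 28 CpG. Col3a1, a fibrillar collagen in A without an enriched region, lies at chr1:45311288-45311537 (plus strand) and holds 0 CpG. Meis1, a homeobox factor in B with H3K4me3, lies at chr11:19018970-19019219 (minus strand) and holds 13 CpG. Ctnna2, in B without H3K4me3, lies at chr6:77979668-77979917 (minus strand) and holds 30 CpG, more than Col5a1. Ctnna2 and Col5a1 thus had like numbers of CpG but differed in side and mark.

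The listed genes of fibroblast matrix and surface that could be placed lay in A. Of the 34 genes for fibroblast matrix and surface, 33 were autosomal and 33 were in A, where 84.3% of all coding genes were (83.8% to 84.8%). The same held for 16 of 16 contractile genes, 34 of 34 genes of the TGFB1 response, 18 of 18 housekeeping genes and 17 of 17 autosomal genes of chromatin architecture. With balanced matrices the numbers in A were 29, 16, 32, 18 and 17, beside 73.2% of all coding genes. Col1a2, Tnc, Vcan, Fap, Tgfbr1 and Nox4 then moved to B. The median score of the lists was 2.05 for matrix and surface, 2.32 for contractile and 1.95 for TGFB1 response genes, beside 1.55 for all coding genes. In the plot of scores by gene list, nearly all points of these lists lie above 0.

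**Figure D3:**
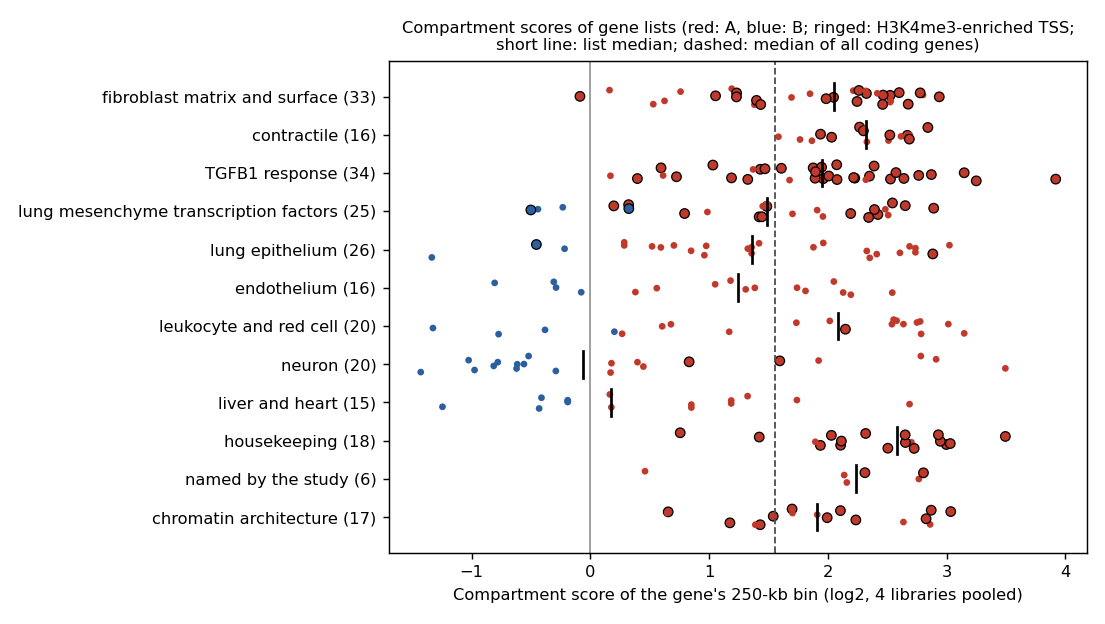
Compartment score (log2, 4 libraries pooled) of the 250-kb bin that holds the TSS of each gene, by list, with the number of autosomal genes in brackets; red is A, blue is B, ringed points have an H3K4me3-enriched region within 2 kb of the TSS, short lines are list medians and the dashed line is the median of all coding genes, 1.55. Fibroblast, contractile and TGFB1 response genes are all red, and 10 of the 20 neuron genes are blue.

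In the matrix and surface list, Col1a1 (type I collagen, chr11, score 2.94), Loxl2 (a collagen crosslinker, 2.80) and Pdgfrb (the receptor of pericytes and fibroblasts, 2.78) were highest. Loxl2 had 0 pair ends within 2 kb of its TSS in each library, and its pooled counting error was 0.22. The scores of the Col1a1 bin (chr11:94750001-95000000) were 3.17 in Control, 2.97 in TGFB1, 3.00 in miR-9-LOF and 2.60 in TGFB1+miR-9-LOF. The lowest were Col1a2, the other chain of type I collagen (0.53), Fap, a surface protease of activated fibroblasts (0.16), and Vcan, a matrix proteoglycan (−0.09). Both chains of type I collagen were thus in A, but their bins differed in preference. Vcan is in A by its eigenvector of 0.46 but its score was near 0, at 0.28 in Control, −0.50 in TGFB1, −0.20 in miR-9-LOF and 0.01 in TGFB1+miR-9-LOF. It lies on chromosome 13, and its counting errors were 0.15 to 0.16.

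Among contractile genes, Tpm2 (2.84), Lmod1 (2.69) and Vcl (2.69) were highest, and Myh11 (1.87), Acta2 (smooth muscle actin, 1.77) and Tagln (1.58) lowest. Tpm2 lies on chromosome 4, with an eigenvector of 0.46. The Acta2 bin scored 1.79 in Control, 1.79 in TGFB1, 1.48 in miR-9-LOF and 2.02 in TGFB1+miR-9-LOF. In the TGFB1 response, Ski (3.92), Id3 (3.25) and Junb (3.15) were highest, with Ski and Id3 on chromosome 4, where few B bins remain. Their counting errors were 0.41 and 0.50 in the pool, and TGFB1 gave no score for either bin. Smad4, the shared mediator of TGFB signals (0.60), Twist1 (0.40) and Nox4, an oxidase of myofibroblasts (0.17), were lowest.

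Of the transcription factors of lung mesenchyme, 21 of 25 (84%) were in A and 4 in B, beside 84.3% of all coding genes. With balanced matrices 18 were in A, and Gli3, Meis2 and Nr2f1 moved to B. Gli1 (2.89), Foxf1 (2.65) and Twist2 (2.54) had the highest scores, and Twist2 had 36.9 EPM, the pair ends within 2 kb of the TSS per 1000000 ends of a library, averaged over the 4 libraries. The 4 in B were Ebf1 (0.32, with an eigenvector of −0.01 next to the threshold), Meox2 (−0.23), Tcf21 (−0.44) and Meis1 (−0.50). Ebf1 and Meis1 nevertheless had enriched TSS, with 9.59 and 12.5 EPM, and Tcf21 and Meox2 did not, with 2.28 and 0.74. The Meis1 bin scored −0.16 in Control, −0.31 in TGFB1, −0.63 in miR-9-LOF and −0.87 in TGFB1+miR-9-LOF. The Tcf21 bin scored −0.51, −0.07, −0.65 and −0.39 in that order.

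The lists of other cell types had genes on both sides, at 88.5% in A for lung epithelium, 80% for leukocytes and red cells, 75% for endothelium, 60% for liver and heart and 50% for neuron, beside 84.3% of all coding genes. With balanced matrices the numbers in A were 21 of 26, 15 of 20, 12 of 16, 7 of 15 and 7 of 20, beside 73.2%. Of the neuron list, 10 of 20 genes were in B and the median score was −0.06. Slc17a7 (3.49), Tubb3 (2.91) and Grin1 (2.78) were highest, and Cntn5 (−0.97) and Cntnap2 (−1.02) were among the lowest. In the liver and heart list 6 of 15 genes were in B, with Tnnt2 (2.69), Apoa1 (1.74) and Ahsg (1.32) highest and Cps1 (−0.41), Ryr2 (−0.43) and Cyp3a11 (−1.24) lowest. In the endothelium list 4 of 16 were in B, with Pecam1 (2.54), Tek (2.19) and Egfl7 (2.13) highest and Emcn (−0.29), Prox1 (−0.31) and Sox17 (−0.81) lowest. In the list of leukocytes and red cells 4 of 20 were in B, with Klf1 (3.15), Cd68 (3.01) and Spi1 (2.78) highest and Ms4a1 (−0.38), Hbb-bt (−0.77) and Ikzf1 (−1.32) lowest. In the lung epithelium list 3 of 26 were in B, with Sftpb (3.02), Foxj1 (2.88) and Krt8 (2.74) highest and Nkx2-1 (−0.22), Foxa1 (−0.45) and Lamp3 (−1.33) lowest. Most listed genes of epithelium, endothelium and leukocytes thus lay in A as well, and of the B genes among them Foxa1 had an enriched TSS, with 2.95 EPM.

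The label of the cells was checked against the mark at marker genes. Of the 12 fibroblast markers, all in A, the TSS of Col1a1, Pdgfra, Pdgfrb and Vim were enriched, with 9.07 to 17.0 EPM. The other 8, Col1a2, Col3a1, Fn1, Sparc, Postn, Lum, Dcn and Thy1, were not, with 1.96 to 5.16. None of 14 markers of epithelium (Sftpc, Cdh1, Epcam, Krt8, Krt18 and Nkx2-1), endothelium (Pecam1, Cdh5, Kdr and Tek) and leukocytes (Ptprc, Cd3e, Csf1r and Itgam) had an enriched TSS. Their values were 0.96 to 3.92, which overlap those of the fibroblast markers without enrichment. Enriched TSS numbered 18 of 33 in the matrix and surface list and 29 of 34 in the TGFB1 response, against 2 of 26 in lung epithelium, 2 of 20 in neuron, 1 of 20 in leukocytes and red cells, 0 of 16 in endothelium and 0 of 15 in liver and heart. Outside these markers, the enriched genes of epithelium and leukocytes were Foxj1 (9.02 EPM), Foxa1 (2.95 EPM) and Cd14 (6.20 EPM). They numbered 7945 of 20372 coding genes in all.

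Gene families differed widely in side. Olfactory receptors, the odorant receptors of the nose, were in A in 203 of 1087 (18.7%, interval 16.5% to 21.1%), vomeronasal receptors in 64 of 264 (24.2%) and keratin-associated proteins in 20 of 57 (35.1%). Defensins were in A in 18 of 42 and the cytochrome P450 and UDP-glucuronosyltransferase genes in 56 of 96. Cytosolic ribosomal proteins (78 of 78), Hox genes (39 of 39), clustered histones (67 of 67) and proteasome subunits (37 of 38) were in A. Zfp genes were in A in 340 of 371, with a median score of 1.32. With balanced matrices the numbers in A were 99 of 1087 olfactory receptors (9.11%), 29 of 264 vomeronasal receptors, 8 of 57 keratin-associated proteins and 272 of 371 Zfp genes (73.3%), beside 73.2% of all coding genes. Hox genes were then in A in 30 of 39, clustered histones in 57 of 67, ribosomal proteins in 70 of 78 and proteasome subunits in 34 of 38. Genes of a cluster share bins and are not independent. Clustered histones were in A with 10 of 67 TSS enriched. Reads of near-identical copies are lost to the mapping quality filter, so the mark at histone, receptor and ribosomal genes is uncertain.

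Some B genes had many pair ends at the TSS. The 10 with the most ends at the TSS were Gm10800 (a predicted gene), Pcdh7 (a protocadherin), Pno1 (a ribosome assembly factor), Dcbld1, Zkscan6, Ccdc59, Rab5a (a GTPase of early endosomes), Mettl25, Cox10 (heme A synthesis) and Mmd, with 18.5 to 30.2 EPM. The windows of Ccdc59 and Mettl25 overlap, so both count many of the same ends. The pooled scores of the 10 were −0.74 to −0.04, beside a median of −0.76 for all B bins. All 10 stayed in B with balanced matrices, as every B bin did. Pcdh7 had 40.8 EPM in Control, 26.3 in TGFB1, 17.0 in miR-9-LOF and 15.7 in TGFB1+miR-9-LOF. The share of all ends in H3K4me3-enriched regions fell too, at 9.99%, 7.20%, 4.94% and 4.21% in that order. Gm10800 differed from the other 9, with 24.8, 20.2, 45.0 and 30.8 EPM in that order. Blacklisted high-signal regions, which the paper removed from its CUT&Tag peaks, were not removed here. Whether the ends at Gm10800 come from H3K4me3 was not tested.

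The extremes of the eigenvector were, in A, a bin on chromosome 4 (2.02) with Faah, Nsun4, Uqcrh, Lrrc41, Rad54l and Pik3r3 among 11 coding genes and 5 enriched regions. The most positive bins of chromosome 3 included bins with Elf2, Naa15 and Rab33b, and Slc30a7, Extl2 and Vcam1. In B they were bins on chromosome 11 with Shisa6 (−1.24), Dnah9 (−1.23), Sgcd (−1.19) and Fam196b (−1.19), and a bin on chromosome 9 with 6 olfactory receptor genes (−1.19). None of these 5 B bins held an enriched region. The GC content of the Fam196b bin was 44.8%, above the median of A, so single B bins can be GC-rich.

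The 6 genes the study singled out, with Prap1 as its negative control for miR-9 at promoters, lay in A: Ncl (2.80), Zdhhc5 (2.77), Ep300 (2.31), Lzts2 (2.16), Hdac7 (2.14) and Prap1 (0.46). In the order Control, TGFB1, miR-9-LOF and TGFB1+miR-9-LOF, the Zdhhc5 bin scored 3.01, 2.47, 2.70 and 2.79, and the Ep300 bin 2.59, 2.67, 2.27 and 1.87. Prap1 had an eigenvector of 0.84 here and of −0.003 with balanced matrices. Of the architecture genes, Ctcf (3.03), Ehmt2 (2.87) and Cbx1 (2.86) were highest and Lbr (1.17), Rad21 (0.66) and Suv39h2 (0.65) lowest, and of the housekeeping genes Rpl13a (3.49), Tubb5 (3.03) and Actb (3.00) were highest and Eef1a1 (1.89), Tbp (1.42) and Sdha (0.76) lowest.

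Compartment strength within chromosomes was 1.66 in Control (95% counting interval 1.65 to 1.66), 1.60 in TGFB1 (1.60 to 1.60), 1.61 in miR-9-LOF (1.61 to 1.62) and 1.59 in TGFB1+miR-9-LOF (1.58 to 1.59). The SD over the 19 autosomes was 0.0969 to 0.107, larger than any difference between libraries, and chromosome 4 was lowest in each library (1.27 to 1.34). On the same chromosome, TGFB1 was below Control on 19 of 19 autosomes, with a median difference of −0.0590. miR-9-LOF was below Control on 16, TGFB1+miR-9-LOF was below TGFB1 on 15 and below miR-9-LOF on 18. With sides taken from the other 3 libraries only, so that a library did not help to place its own bins, strength was 1.65, 1.59, 1.60 and 1.58 in the order Control, TGFB1, miR-9-LOF and TGFB1+miR-9-LOF. Between 98.4% and 99.0% of the bins kept their side in those pools.

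The parts of strength moved more than strength itself. A-A pairs stood at 1.40 times the expected number in Control, 1.36 in TGFB1, 1.29 in miR-9-LOF and 1.32 in TGFB1+miR-9-LOF. B-B pairs ran the other way, at 0.635, 0.682, 0.841 and 0.771, and A-B pairs stood at 0.615, 0.640, 0.660 and 0.659. Coverage moved with these values, and its part in them was not tested. An A bin held 2.37 times the pair ends of a B bin in Control, 2.16 in TGFB1, 1.73 in miR-9-LOF and 1.87 in TGFB1+miR-9-LOF. The share of ends in H3K4me3-enriched regions was 9.99%, 7.20%, 4.94% and 4.21% in that order. Outside enriched regions the A-to-B ratio kept its order, at 2.10, 1.99, 1.63 and 1.78. With balanced matrices and the same sides, A-A was 1.08 to 1.09, B-B 1.18 to 1.20 and A-B 0.730 to 0.748 in all 4 libraries. Strength was then 1.53 in Control, 1.51 in TGFB1, 1.57 in miR-9-LOF and 1.54 in TGFB1+miR-9-LOF.

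Balancing turned the direction of 2 differences. miR-9-LOF minus Control was −0.0417 (−0.0464 to −0.0371) in the counts as deposited and 0.0423 (0.0384 to 0.0461) when balanced with the same sides. TGFB1+miR-9-LOF minus TGFB1 was −0.0132 and then 0.0272. TGFB1 stayed below Control and TGFB1+miR-9-LOF below miR-9-LOF within chromosomes. Between chromosomes TGFB1 was above Control (1.78 against 1.71). Both differences that turned did so as well when pairs near coding TSS were left out, at 0.0248 and 0.0224. The direction of the difference with miR-9-LOF thus depended on the way of counting.

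**Figure D4:**
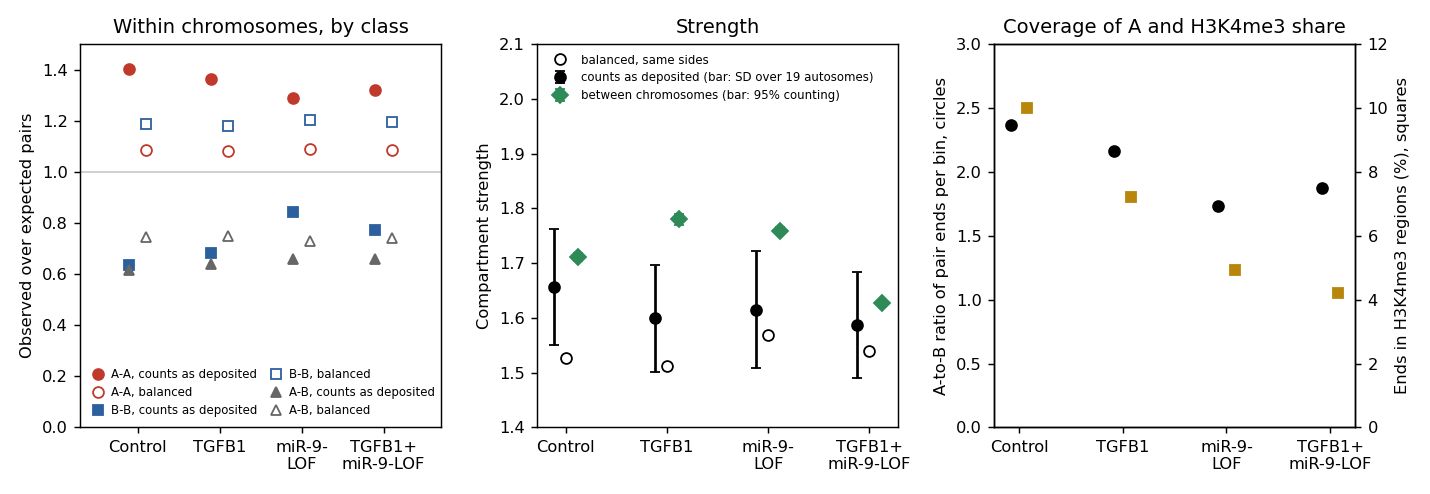
Left, observed over expected pairs within chromosomes for A-A, B-B and A-B in each library, filled for counts as deposited and open for balanced matrices. Middle, compartment strength within chromosomes (black, bars are the SD over 19 autosomes; open, balanced) and between chromosomes (green, bars are 95% counting intervals). Right, ratio of pair ends per bin in A to B (circles) and percent of ends in H3K4me3-enriched regions (squares). B-B rises from 0.635 in Control to 0.841 in miR-9-LOF in the counts as deposited and stays at 1.18 to 1.20 when balanced, while the A-to-B ratio falls from 2.37 to 1.73.

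Strength grew with distance. For pairs less than 1 Mb apart it was 1.46 in Control, 1.41 in TGFB1, 1.36 in miR-9-LOF and 1.36 in TGFB1+miR-9-LOF, and for pairs 40 Mb or more apart 2.28, 2.22, 2.19 and 2.15. B-B pairs were fewest at short range, at 0.498 in Control under 1 Mb against 0.939 between 2 and 5 Mb. A larger share of the intrachromosomal ends in B came from pairs of at least 2 Mb (27.4% to 29.7% over the libraries, against 19.7% to 23.5% in A), and a smaller share from pairs under 20 kb (18.7% to 20.9%, against 23.7% to 27.7%). Interchromosomal pairs gave 13.7% to 17.1% of the ends of B and 14.7% to 18.9% of those of A, and A was higher in each library.

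The map of sides was close to the same in every library. Each library's own eigenvector put 95.1% (Control), 96.0% (TGFB1), 96.6% (miR-9-LOF) and 97.1% (TGFB1+miR-9-LOF) of the bins on the side of the pool, of which it was part. In 8401 bins (88.8%) all 4 libraries gave the pooled side, and the others had a median distance of 0.122 from 0 in the pooled eigenvector. Positive bins made up 67.6% in Control, 65.4% in TGFB1, 61.0% in miR-9-LOF and 62.6% in TGFB1+miR-9-LOF, in the order of the A-to-B ratio of coverage.

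Scores of single bins were compared between libraries. A bin was called when its score differed by at least 0.5 on the log2 scale and the 95% counting interval of the difference excluded 0, with no correction for the number of bins. The median counting error of a difference was 0.22 to 0.25, so 0.5 is close to 2 errors of a typical bin. The comparisons share libraries (Control, TGFB1, miR-9-LOF and TGFB1+miR-9-LOF each enter 2), so they are not independent. Between TGFB1 and Control, 557 of 9320 bins (5.98%) were called, 168 higher in TGFB1 (1.8%) and 389 lower (4.17%). Between miR-9-LOF and Control, 881 of 9461 (9.31%) were called, 33 higher in miR-9-LOF (0.349%) and 848 lower (8.96%). Between TGFB1+miR-9-LOF and TGFB1, 455 of 9320 (4.88%) were called, 86 higher (0.923%) and 369 lower (3.96%). For TGFB1+miR-9-LOF against miR-9-LOF, 297 of 9461 (3.14%) were called, 208 higher (2.2%) and 89 lower (0.941%). TGFB1 scored 141 fewer bins, all in A and on chromosome 4, because the expected number of pairs was under 20. Of the 574 kept bins of that chromosome, 76 were B.

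The split of higher and lower calls went with a shift of all bins. The median difference over all bins was −0.06 for TGFB1 against Control, −0.19 for miR-9-LOF against Control, −0.08 for TGFB1+miR-9-LOF against TGFB1 and 0.05 for TGFB1+miR-9-LOF against miR-9-LOF. Relative pair ends in B bins changed by 0.10, 0.38, 0.18 and −0.10 at the median (log2) in the same comparisons. With balanced matrices and the same sides the medians were 0.01, 0.04, 0.02 and −0.02, and 840, 617, 709 and 453 bins were called (8.88%, 6.52%, 7.49% and 4.79%). Of these, 55.1%, 69.2%, 56.4% and 38.0% were higher, against 30.2%, 3.75%, 18.9% and 70.0% in the counts as deposited. Of the bins called in the deposited counts, 434 of 557, 207 of 881, 306 of 455 and 201 of 297 were called again in the same direction and 0 in the opposite one. For miR-9-LOF against Control, 33 of the 33 higher bins and 174 of the 848 lower bins remained.

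**Figure D5:**
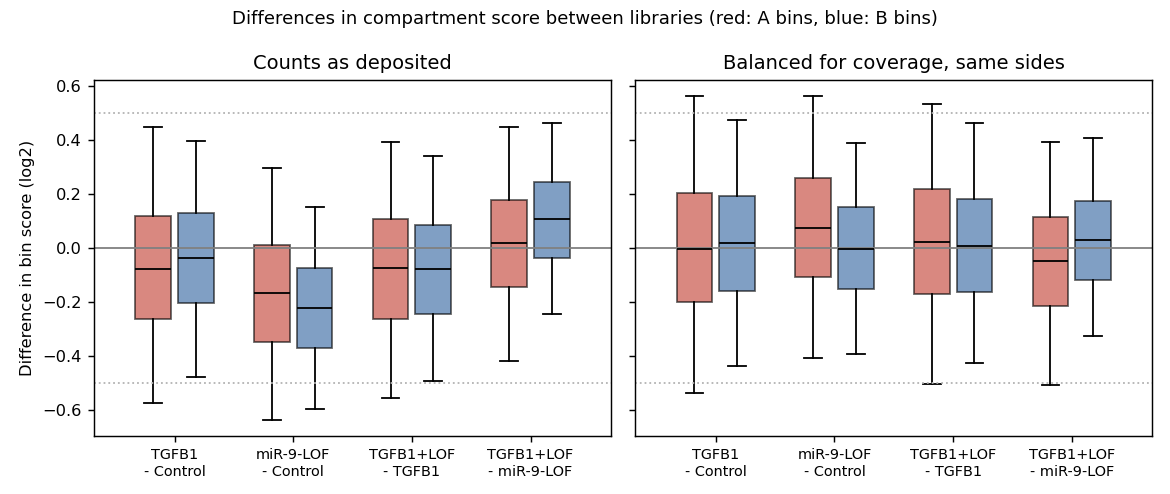
Differences in compartment score (log2) between libraries for A bins (red) and B bins (blue); boxes span the quartiles, whiskers the 5th to 95th percentile and dotted lines mark 0.5 and −0.5. In the counts as deposited (left) the bins of miR-9-LOF lie below Control, at medians of −0.17 in A and −0.22 in B; with balanced matrices (right) the median over all bins is 0.04.

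Both compartments held called bins. In A and B, 6.79% and 4.57% of the bins were called for TGFB1 against Control, 8.67% and 10.5% for miR-9-LOF against Control, 5.10% and 4.51% for TGFB1+miR-9-LOF against TGFB1, and 2.83% and 3.69% for TGFB1+miR-9-LOF against miR-9-LOF. Few bins changed the sign of their score with intervals clear of 0 in both libraries: 3, 9, 4 and 1. This is not a count of changes of side by eigenvector. By the libraries' own eigenvectors, 8401 bins (88.8%) had the pooled side in all 4 libraries. Bins whose score changed sign in both comparisons with Control are counted in each. With balanced matrices and the same sides, 0 of them changed sign again. The bins that changed held the gene Frmd4a or Fhl5, a trio of Plcxd2, Cd96 and Gm4737, or the gene Parm1, or they held clusters (Gm8300, Oog1, Gm4027 and Gm16381, and 6 genes of the Ms4a neighbourhood), and the others held no coding gene. No gene of the lists lay in a bin whose score changed sign in this way.

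The calls reached some fibroblast genes. For TGFB1 against Control, 5 of 33 matrix and surface genes lay in bins called lower in TGFB1 and 0 in bins called higher, beside 4.17% and 1.8% of all bins: Col6a1 and Col6a2 (chains of type VI collagen, in 1 bin), Loxl1 (a crosslinker of elastic fibres), Vcan and Thy1. These 5 genes lie in 4 bins. The Col6a1 bin scored 2.88 in Control, 2.21 in TGFB1, 2.51 in miR-9-LOF and 2.41 in TGFB1+miR-9-LOF, a difference of −0.67 ± 0.28 (counting SE). The Vcan bin had a difference of −0.78 ± 0.23 and the Loxl1 bin of −0.72 ± 0.33. With balanced matrices the bins of Col6a1, Col6a2, Loxl1 and Vcan were called again and that of Thy1 was not (−0.40 ± 0.24). In the counts as deposited, none of the contractile or TGFB1 response genes was called in this comparison, with median differences of −0.15 and −0.16. With balanced matrices Myh9 and Pmepa1 were called higher and Mylk and Tgfb3 lower, beside 8.88% of all bins called in either direction. Of the mesenchyme factors, Ebf2, a transcription factor, was called higher (0.76 in Control and 1.39 in TGFB1, a difference of 0.63 ± 0.27), and Tbx5, Foxf1 and Tcf21 joined it when balanced.

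For miR-9-LOF against Control, Thy1 of the matrix list, Skil and Hmga2 of the TGFB1 response and Meis2, Tead1 and Nr2f2 of the mesenchyme factors lay in bins called lower, beside 8.96% of all bins. The Hmga2 bin scored 2.26 in Control, 1.95 in TGFB1, 1.66 in miR-9-LOF and 1.76 in TGFB1+miR-9-LOF. Of these 6, only the Tead1 bin was called again with balanced matrices, at −0.65 ± 0.24, and Myh9 and Ebf2 were then called higher. For TGFB1+miR-9-LOF against TGFB1, lower calls held Col5a1, Ddr2, Vcl, Id1, Tbx5, Meis1 and Ebf2, and higher calls held Vcan and Tgfb3, beside 3.96% and 0.923% of all bins. The Vcl bin had the largest of these differences, falling from 3.45 for TGFB1 to 2.12 for the combination (−1.33 ± 0.45). All of these but Tbx5 (−0.58 ± 0.24, and −0.49 ± 0.19 when balanced) and Meis1 (−0.56 ± 0.19 and −0.44 ± 0.14) were called again when balanced, where Smad7, Nr2f1 and Heyl were called higher and Smad6 lower as well. For TGFB1+miR-9-LOF against miR-9-LOF, Fbln2, Acta2 and Skil lay in bins called higher and Tpm1 in a bin called lower, beside 2.2% and 0.941% of all bins. The Acta2 difference was 0.53 ± 0.23, and 0.43 ± 0.18 when balanced, below the threshold. The Skil call was lost too (0.45 ± 0.15 when balanced), those of Fbln2 and Tpm1 were kept, and Dcn, Eln, Myh9, Des and Vcl were called lower and Osr1 higher only when balanced. Ep300 was lower in TGFB1+miR-9-LOF than in TGFB1 (−0.80 ± 0.34), a call kept when balanced. Zdhhc5 was lower in TGFB1 than in Control (−0.54 ± 0.22), a call lost when balanced (−0.38 ± 0.18). With 1 library per condition, none of these differences has a replicate check. When balanced, 6.52% of all bins were called for miR-9-LOF against Control. The shares were 7.49% for TGFB1+miR-9-LOF against TGFB1 and 4.79% for TGFB1+miR-9-LOF against miR-9-LOF.

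Genes of other lists lay in called bins as well. For TGFB1 against Control, 15.2% of the matrix and surface genes were called, beside 13.3% of the liver and heart list (Cyp3a11 and Ryr2, both lower). The share was 11.5% in the lung epithelium list (Cldn4 higher, Cdh1 and Foxa2 lower) and 5.98% over all bins. When balanced, the calls of Cyp3a11, Cdh1 and Foxa2 were lost and those of Ryr2 and Cldn4 were kept. Gata2, Grin1 and Lmna were the lower calls of the leukocyte, neuron and architecture lists, and were called again when balanced. In the counts as deposited no gene of the endothelium or housekeeping lists was called. With balanced matrices Kdr and Sox18 of endothelium, Polr2a and Sdha of housekeeping and Itgam of leukocytes were called higher, and Eef2 of housekeeping lower. For miR-9-LOF against Control, 4 of 26 lung epithelium genes were called lower (Scgb1a1, Foxj1, Foxa1 and Foxa2), against 1 of 33 matrix and surface genes. Of all bins 8.96% were called lower, and none of these 5 genes was called again when balanced. The leukocyte, neuron, liver and heart, housekeeping and architecture lists had 1 lower call each (Adgre1, Neurod6, Ryr2, Eef2 and Cbx5), and endothelium had 0. Of these lower calls only that of Ryr2 was kept when balanced. Kdr, Sox18 and Prox1 of endothelium and Ptprc, Cd4, Cd68 and Hbb-bt of leukocytes and red cells were then called higher. The same held for Cldn4, Rbfox1, Ahsg, Tnnt2 and Lmnb2. Between TGFB1+miR-9-LOF and TGFB1 alone, higher calls held Cdh1, Syt1, Slc17a7, Rpl13a and Cbx1, with Slc17a7 and Rpl13a in 1 bin. Lower calls held Cldn4, Itgam, Sdha and Smc3, and of all bins 0.923% were called higher and 3.96% lower. The calls of Cldn4 and Smc3 were lost when balanced and the others were kept. Hopx, Trp63, Gata2, Tnnt2 and Ehmt2 were then called higher. Foxj1, Syt1 and Cbx5 were called higher and Cd4 and Itgam lower for TGFB1+miR-9-LOF against miR-9-LOF, beside 2.2% and 0.941% of all bins. These calls were kept when balanced, where Setdb1 was called higher and Ptprc, Psmb2, Lmnb2 and Trim28 lower as well. Over all bins the balanced calls made up 8.88%, 6.52%, 7.49% and 4.79% in the order of these comparisons.

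Of the 40 bins with the 5 largest calls in each direction of each comparison, 18 were on chromosome 4, 36 were in A and 12 held no coding gene. For TGFB1 against Control the bins called higher included one with Gm5622, Gm17175, Gm17174, Gm17078, Gm4181, Gm17079 and Gm5800, and those called lower included bins with Fzd8 (a Wnt receptor, −1.74 ± 0.39) or the cluster of Oog1, Gm8300, Gm4027 and Gm16381. The Fzd8 bin scored 1.59 in Control, −0.15 in TGFB1, 1.02 in miR-9-LOF and 1.37 in TGFB1+miR-9-LOF, so TGFB1 stood apart from the other 3. For miR-9-LOF against Control, higher bins held Cldn19, Ybx1, Ppih, Ccdc30, Ppcs, Zmynd12 and Rimkla, or Galnt16, Slc39a9, Erh and Plekhd1, or Fbxo38, Spink10, Gm36368, Spink7 and Spink13. Lower bins included those of Slc25a33 and Spsb1 (−4.13 ± 2.10), Prdm16 and Actrt2, or Tusc1, all on chromosome 4, and the Oog1 cluster. The Control score of the Slc25a33 bin had a counting error of 2.04, and that of the Prdm16 bin one of 0.915. Errors of this size mean very few Control pairs with B bins, so the 0.5 pair added weighs on these scores. The error of the Slc25a33 bin is that of a B count made up of the added 0.5 pair alone. Its Control score and its difference thus rest on that addition. The call of the Slc25a33 bin only just passed.

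For TGFB1+miR-9-LOF against TGFB1, higher bins held Fzd8 again (1.52 ± 0.39), a bin of 13 genes with Best2, Asna1, Trir, Tnpo2, Fbxw9, Gm5741, Dhps, Wdr83os, Wdr83, Man2b1, Zfp791, Cks1brt and Olfr371 (1.21 ± 0.31), Mllt3 and Focad, or E330034G19Rik, Polr3a and Rps24. Lower bins held 4930522H14Rik, Cdkn2c and Faf1, Atg7, Camk2g, Plau and Vcl, Clk3, Arid3b, Ubl7 and Sema7a, or Hlcs, Ripply3, Ttc3 and Pigp. For TGFB1+miR-9-LOF against miR-9-LOF, higher bins held Dbndd1, Gas8 and Rhou, Dnajc16, Casp9, Cela2a, Ctrc and Efhd2, or Ajap1. Lower bins held Tpcn2, Mrgprf and Mrgprd, the Galnt16 bin again, or Wdr34, Set, Pkn3, Zdhhc12, Zer1, Tbc1d13, Endog, Spout1, Kyat1, Lrrc8a and Gm28035. The Galnt16 bin scored 2.05 in Control, 2.74 in TGFB1, 3.17 in miR-9-LOF and 1.94 in TGFB1+miR-9-LOF. Counting errors of the 40 differences ran from 0.27 to 2.10.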

How the data were processed

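H3K4me3 HiChIP was measured in 4 MLg libraries, 1 per condition. The authors aligned the reads to mm10 and deposited the valid pairs that HiC-Pro left after removal of duplicates, as the positions of both ends with a mapping quality score for each end, and the deposited score was used here only as a filter (at least 30 at both ends). Pairs were counted in 250-kb bins of the 19 autosomes. Bins under 10% of the median of their chromosome were left out, and chromosome X was not used. The pooled counts were divided by the mean at each distance, and the first eigenvector of the correlation matrix gave the side. Scores used pairs at least 2 Mb apart, with 0.5 pair added and at least 20 expected pairs. Antibody enrichment can raise the coverage near active promoters, and counts that are not balanced can carry coverage into the eigenvector, so balanced matrices were an alternative. The part of enrichment in the sides was not tested. No test between conditions was made, since there was 1 library per condition. Intervals (95%) are Poisson or Wilson and cover counting error only. The depth was 9349493 to 13148144 pairs, which gave median counting errors of 0.149 to 0.188 for a score.

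Genes were placed by their TSS in GENCODE on GRCm38.p6, the build of mm10. H3K4me3-enriched regions were called on libraries thinned to 9349493 pairs each, with a Poisson test of each 1-kb bin at a false discovery rate of 0.01. The text names every gene of the fibroblast, contractile, TGFB1 response and mesenchyme lists in B, the 3 highest and 3 lowest scores of each list, the genes the study singled out, the 10 B genes with most ends, and the coding genes of the 5 called bins with the largest difference in each direction. Some genes that this rule names are not reported here. Other genes were named after their values were seen. The members and lists were chosen with earlier results of these data known. The alternatives were other bin sizes, balancing, mapping quality, pairs near TSS, a stricter bin filter, another eigenvector, pools without 1 library, distance, thinning and centring, and 2 alternatives were added after seeing the data. The code was tested on simulated data. Python 3.11.15, numpy 2.4.6, scipy 1.17.1 and pandas 2.3.3 were used.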

Additional observations from a re-analysis of the deposited data

How the results depend on the processing

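Every value keeps the order Control, TGFB1, TGFB1+miR-9-LOF, miR-9-LOF for strength, and TGFB1 against Control, miR-9-LOF against Control, TGFB1+miR-9-LOF against TGFB1, TGFB1+miR-9-LOF against miR-9-LOF for calls. Another choice of eigenvector gave identical values. With any mapping quality the called bins numbered 507, 818, 395 and 253, and with thinning to the smallest library 562, 910, 484 and 379, all within 1.5 times the reported counts. The cause of the moves below was not tested.

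The share of A bins was 65.3% with 500-kb bins, 49.3% balanced, 58.5% without pairs near coding TSS, 65.0% with bins at 50% of the median, 61.6% without chromosomes 4 and 13, and 62.6% to 65.3% when 1 library was left out of the pool. Strength was 1.68, 1.62, 1.60 and 1.63 with 100-kb bins, 1.58, 1.54, 1.53 and 1.56 with 500-kb bins, and 1.61, 1.59, 1.62 and 1.64 balanced. It was 1.54, 1.52, 1.54 and 1.57 without pairs near TSS, and 1.61, 1.56, 1.55 and 1.59 with bins at 50% of the median. It was 1.65, 1.59, 1.58 and 1.60 with sides of the other 3 libraries, and 2.02, 1.97, 1.94 and 1.99 at 2 Mb or more. It was 1.69, 1.63, 1.61 and 1.64 without chromosomes 4 and 13, and 1.53, 1.51, 1.54 and 1.57 balanced with the same sides, the last 2 chosen after seeing the data.

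TGFB1 stayed below Control and TGFB1+miR-9-LOF below miR-9-LOF in strength within chromosomes under every alternative run, whereas between chromosomes TGFB1 was above Control (1.78 against 1.71). miR-9-LOF minus Control turned to 0.0304 balanced, 0.0248 without pairs near TSS and 0.0423 balanced with the same sides, and TGFB1+miR-9-LOF minus TGFB1 to 0.0280, 0.0224 and 0.0272.

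Called bins numbered 1360, 2260, 1257 and 1228 with 100-kb bins and 131, 201, 85 and 40 with 500-kb bins, where the number of bins differs too. For miR-9-LOF against Control they numbered 443 balanced, 539 without pairs near TSS and 352 with the compartment median subtracted. With all pairs of different bins they numbered 329 for TGFB1 against Control and 301 and 185 for the comparisons of TGFB1+miR-9-LOF with TGFB1 and with miR-9-LOF. Balanced with the same sides, these 3 numbered 840, 709 and 453. The share of calls that were higher was 53.8%, 63.9%, 59.4% and 49.1% balanced, and 54.9%, 55.4%, 46.7% and 47.7% with the compartment median subtracted.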
